A study of Homo sapiens with 2 samples.

Results

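NEAT1 and MALAT1 are neighbouring genes on the long arm of chromosome 11 that make long noncoding RNAs kept in the nucleus, and the deposited list of ZFX peaks was read along both. A peak was taken when it overlapped the gene or the 5 kb on either side, which gave 12 of the 14471 peaks of the list, 8 at NEAT1 and 4 at MALAT1. On the hg19 build, NEAT1 spans chr11:65190269-65213011 and MALAT1 spans chr11:65265233-65273940, both read on the plus strand. The peaks come from ChIP-seq (sequencing of chromatin pulled down by an antibody), done with a rabbit polyclonal antibody to ZFX in cells of the established human medulloblastoma line DAOY. The study held 2 samples with 1 library each, the ZFX precipitation and an input of sheared chromatin that was not precipitated. Both are DAOY cells with no other treatment named in the labels. Only the ZFX library is described, since the input was not analysed here. Both genes were chosen by their listed peaks, with the peaks' positions and scores and their place in a peak-rich window already known, so counts and scores are a description and carry no test. With 1 library there is no replicate check. The number of reads behind a peak is unknown, and scores are those of the authors, with no stated unit.

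As background, ZFX, a zinc finger protein made from an X-linked gene, is a transcription factor known for binding at CpG-rich promoters. NEAT1 RNA is the scaffold of paraspeckles, nuclear bodies that hold RNA-binding proteins. The gene makes a short and a long RNA from a shared start, and the long RNA is the form that builds paraspeckles. MALAT1 RNA gathers at nuclear speckles, which store splicing factors, and its 3′ end is cut to release a small tRNA-like RNA, mascRNA.

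RefSeq gives 2 promoter windows for MALAT1 on GRCh38.p14, each with 250 bases before and 50 after a start, and 1 of the 2 genes, MALAT1, was matched. Windows are shown for MALAT1 alone because NEAT1 was not matched, and are printed on the plus strand, that of the gene. Capitals mark CpG, a C followed by a G. The upstream window is chr11:65497488-65497787 and the downstream window is chr11:65498795-65499094.
MALAT1 upstream window: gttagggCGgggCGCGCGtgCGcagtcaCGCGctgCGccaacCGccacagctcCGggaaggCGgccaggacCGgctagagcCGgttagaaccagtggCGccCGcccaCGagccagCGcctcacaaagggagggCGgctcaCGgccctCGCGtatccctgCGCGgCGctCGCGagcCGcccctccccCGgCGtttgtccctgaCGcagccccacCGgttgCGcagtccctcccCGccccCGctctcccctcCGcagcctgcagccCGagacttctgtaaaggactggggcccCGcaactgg
MALAT1 downstream window: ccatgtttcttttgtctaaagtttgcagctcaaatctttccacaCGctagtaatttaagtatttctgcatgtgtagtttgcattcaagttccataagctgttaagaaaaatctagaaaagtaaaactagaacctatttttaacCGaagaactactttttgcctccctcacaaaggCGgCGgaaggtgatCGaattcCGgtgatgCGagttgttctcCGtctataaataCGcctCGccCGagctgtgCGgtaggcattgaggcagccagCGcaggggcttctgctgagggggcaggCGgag

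The upstream window held 37 CpG and was 73.7% G and C, whereas the downstream window held 14 CpG and was 46.0% G and C. Over 35116 RefSeq promoter windows of the same length the medians were 14 CpG and 58.7%, and 88.7% of windows held fewer CpG than the upstream one. The letters AGGCC, the core of motifs known for ZFX, were searched on both strands, which reads GGCCT on the other strand. Neither MALAT1 window held them, while 56.2% of all windows did. The peaks are on hg19 and these windows on GRCh38.p14, so the peaks were not placed on these sequences.

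Most NEAT1 peaks, 7 of 8, lay around the start of the gene. Of the 8 peaks, 4 lay wholly upstream, 1 covered the start, 3 lay further inside the gene and none lay past its end. The peak over the start, chr11:65190094-65191751, scored 586.69 and was 1658 bp wide, running from 175 bp upstream to 1482 bp downstream of the start. It was the widest of the 12, and 98.9% of the peaks of the list were narrower. Its score ranked 874 in the list, so 94.0% of peaks scored lower.

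The strongest NEAT1 peak did not cover the start. It lay at chr11:65186485-65187130, with its nearer edge 3139 bp upstream, and scored 811.64 over 646 bp. That score ranked 465 among all peaks, 27 among the 751 of chromosome 11 and 2 in its 1 Mb window. Although it was picked as the strongest and lay 5 bp from a weaker peak, its score was also high for its listed width. Among 1893 peaks within 10% of its width the median score was 179.24, and 98.5% scored lower. The wider peak over the start was not set apart in this way, since the 161 peaks of like width had a median of 678.48 and 37.9% of them scored lower.

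The other 6 NEAT1 peaks were weak, all under 100 and under the list median of 108.9. Upstream, chr11:65186122-65186479 scored 63.55, chr11:65188629-65188955 scored 71.38 and chr11:65189307-65189684 scored 76.64. These lay between the start and 4147 bp before it, around the strongest peak and between it and the peak over the start. Inside the gene, chr11:65194092-65194346 scored 53.72 and chr11:65194359-65194968 scored 93.97, the pair lying 3823 to 4699 bp past the start. After these, 17233 bp held no peak, a stretch equal to 75.8% of the gene's length. The last peak, chr11:65212202-65212540, scored 54.63 and ended 471 bp before the NEAT1 end, close to the lowest score in the list, 50.

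**Figure D1:**
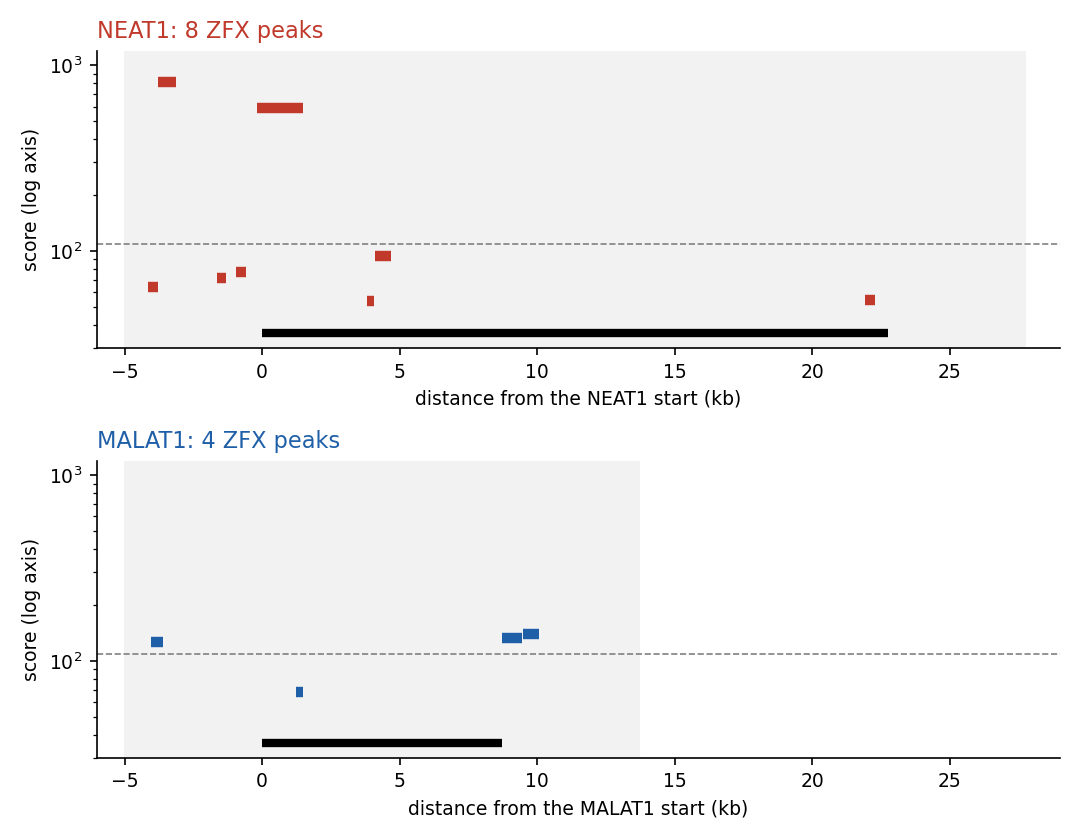
Peaks of the 1 ZFX library along NEAT1 (red, 8 peaks) and MALAT1 (blue, 4 peaks). The horizontal axis is the distance from the gene start in kb and the vertical axis the authors' score on a log axis. Each coloured segment spans a peak's width at its score, the black bar is the gene, the grey area is the gene with 5 kb on either side, and the dashed line is the list median of 108.9. The 2 NEAT1 peaks above that line score 811.64 and 586.69, and no MALAT1 peak covers the left end of its black bar.

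At MALAT1, no peak covered the start used here, chr11:65265233, and the peaks lay away from it on both sides. The nearest, chr11:65266456-65266725, was also the only peak inside the gene. It lay 1223 to 1492 bp past that start and scored 67.55 over 270 bp. RefSeq gives a second start further downstream, on the other build, where the 2 promoter windows begin at 65497488 and 65498795. The spacing of these windows falls within the 1223 to 1492 bp of this peak. Whether the peak covers the second start was not tested, since the start used here was not placed on that build. Upstream, chr11:65261212-65261633 scored 126.28 and ended 3600 bp before the start. The higher scores were at the other end of the gene. A peak at chr11:65273944-65274697 began 4 bp past the MALAT1 end and scored 133.04, and chr11:65274703-65275289 scored 138.79 and reached 1349 bp past the end. The strongest of the 4 ranked 5819 in the list, with 59.8% of peaks scoring lower.

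The scores were spread over a wider range at NEAT1 than at MALAT1. NEAT1 scores ran from 53.72 to 811.64 with a median of 74.01, and MALAT1 scores ran from 67.55 to 138.79 with a median of 129.66. Peaks scoring above the list median numbered 2 of 8 at NEAT1 and 3 of 4 at MALAT1, against 49.9% of the list. A score of 500 or more was reached by 2 of the 8 NEAT1 peaks and 0 of the 4 MALAT1 peaks, against 8.23% of the list. Peaks per 10 kb of gene with flanks were close, 2.44 at NEAT1 and 2.14 at MALAT1. Peaks covered 14.0% of NEAT1 with its flanks and 10.9% of MALAT1 with its flanks. Within the gene alone the covered share was 11.8% for NEAT1 and 3.10% for MALAT1. With so few peaks and 1 library, none of these differences was tested.

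**Figure D2:**
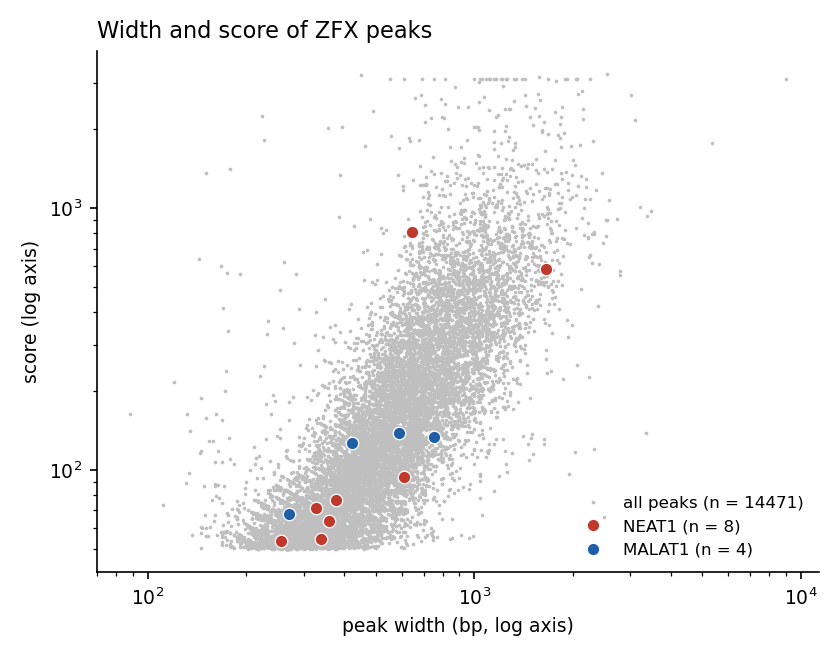
Width in bp against the authors' score, both on log axes, for all 14471 peaks (grey), the 8 at NEAT1 (red) and the 4 at MALAT1 (blue). The NEAT1 peak of 646 bp scores 811.64, above most peaks of like width, and the NEAT1 peak of 1658 bp scores 586.69.

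Several of these peaks almost touched. Of the 10 gaps between neighbouring peaks of the same gene, 3 were at most 100 bp, against 6.33% of the 14447 gaps in the list, and 5 were at most 1 kb, against 17.4% of them. The 3 shortest were 5 bp and 12 bp at NEAT1 and 5 bp at MALAT1. The 5 bp gap at NEAT1 separated the strongest peak from a neighbour scoring 63.55, and the 5 bp gap at MALAT1 lay between the 2 peaks past the gene end. A neighbour at most 1 kb away was found for 7 of the 8 NEAT1 peaks and 2 of the 4 MALAT1 peaks, against 32.1% of all peaks. When peaks that close were joined, NEAT1 had 4 regions and MALAT1 had 3. Whether such near-touching peaks are separate sites was not tested. The 10 gaps lie within a gene with its flanks, so long gaps could not enter, whereas those of the list run along whole chromosomes. Both genes were also picked for their peaks, so close neighbours were favoured beforehand and the shares are a description only.

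With all peaks counted, NEAT1 was among the denser places of the list, though it was picked for its peaks. Stretches of 32.7 kb, the length of NEAT1 with its flanks, were laid from the start of every peak. The share that held 8 peaks or more was 0.622%, or 90 of 14471 overlapping stretches at 35 separate places on 17 chromosomes. The median stretch held 1 peak and the fullest held 17. With only the peaks above the list median, NEAT1 held 2, a count that 25% of stretches reached. With close peaks joined it held 4 regions, a count that 2.57% of stretches reached. For the 18.7 kb of MALAT1 with its flanks, 4.35% held 4 peaks or more, 630 stretches at 299 separate places. The 7 peaks around the NEAT1 start lay within 8.85 kb and covered 47.8% of it, a span set after the peaks were seen. As many in that length were found in 0.076% of stretches, 11 stretches at 7 separate places including NEAT1.

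**Figure D3:**
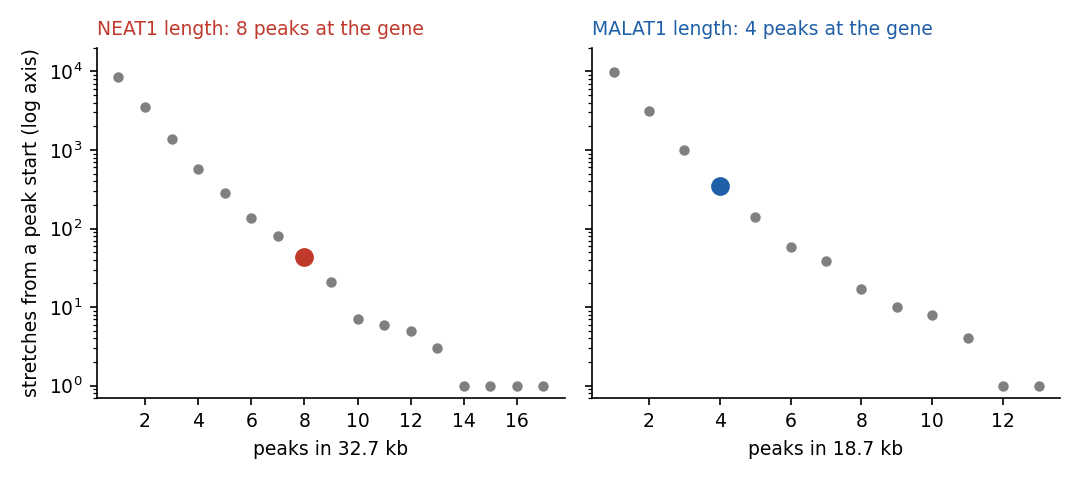
Number of stretches laid from each peak start (vertical, log axis) against the peaks they held (horizontal), for the length of NEAT1 with flanks (left, 32.7 kb) and of MALAT1 with flanks (right, 18.7 kb). Coloured points mark the count at each gene, 8 and 4, and 90 and 630 of 14471 stretches held as many or more.

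Between 65 and 66 Mb on chromosome 11, the Mb of the list with most peaks, 51 peaks had their midpoint. The genes with their flanks held 12 of them, 23.5% (exact Clopper-Pearson 95% interval 12.8% to 37.5%, for counting error only and as if peaks were independent), in 5.15% of the length. NEAT1 held 15.7% and MALAT1 held 7.84%. The share was thus 4.57 times the share of length, but both genes were picked for their peaks and the window was uneven. By 100 kb, it held 8 peaks from 65.1 to 65.2 Mb and 10 from 65.2 to 65.3 Mb, where the genes lie. Other parts were as full, with 10 peaks from 65.3 to 65.4 Mb and 10 from 65.6 to 65.7 Mb, while 65.9 to 66 Mb held 0. The other 39 peaks of the window had a median score of 85.1, and the 12 had a median of 85.31, under the list median of 108.9 in both cases. Of the 7 peaks of the window at 500 or more, 2 were at NEAT1.

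Beyond the 5 kb limit, only 1 peak of the window outscored the strongest NEAT1 peak. The highest score of the window, 1562.65, belonged to chr11:65292518-65293262, 18.6 kb past the MALAT1 end. In the space between the genes, beyond their flanks, 4 peaks were listed. The strongest, chr11:65243795-65245070, scored 592.81 and lay 30.8 kb past the NEAT1 end and 20.2 kb before the MALAT1 start. The nearest to the limit, chr11:65258937-65259263, scored 78.52 and missed the MALAT1 flank by 970 bp, whereas the MALAT1 peak just inside the limit scored 126.28. Before NEAT1, the next peak scored 85.1 and lay 88.5 kb away. In RefSeq gene order, FRMD8 and SLC25A45 precede NEAT1, FAUP4, ENEMAL and LINC02736 lie between the genes, and SNRPGP19 follows MALAT1. MIR612 lies within NEAT1, and MASCRNA and the antisense gene TALAM1 overlap MALAT1. That table is on GRCh38.p14, so no peak was assigned to these genes.

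**Figure D4:**
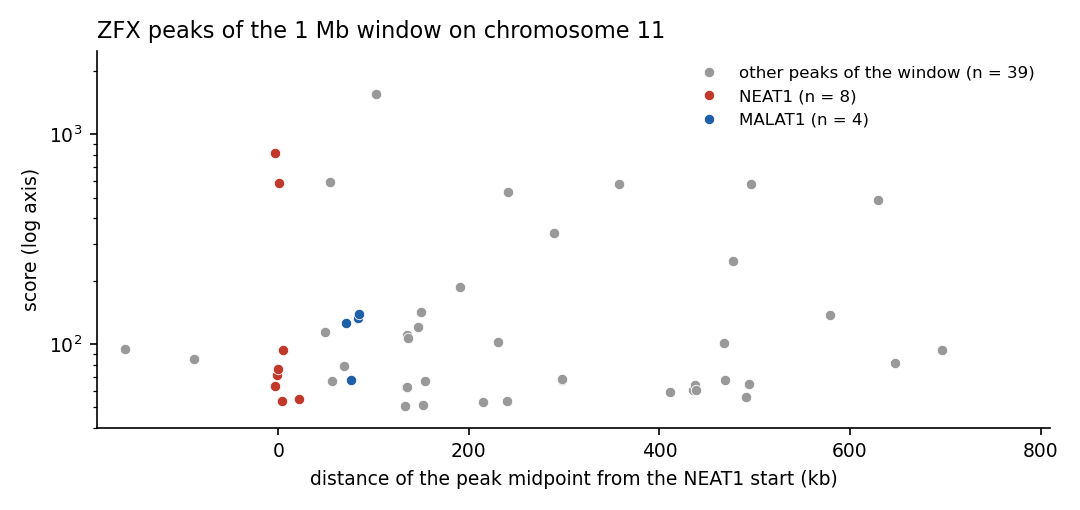
The 51 peaks of chromosome 11 between 65 and 66 Mb, with the distance of the peak midpoint from the NEAT1 start in kb on the horizontal axis and the authors' score on a log axis. Points are peaks at NEAT1 (red, 8), at MALAT1 (blue, 4) and elsewhere in the window (grey, 39), where the highest score is 1562.65.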

How the data were processed

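ZFX ChIP-seq peaks of DAOY cells were analysed for 1 library. Samples were grouped by the antibody in the labels. Per the submitters' processing notes, the tool was Bowtie2 2.0.0 and the build hg19, with no roles given. The deposited list has no header, and its peak names carry the name MACS; its version, threshold and control are not stated in the labels or the file. The authors deposited a score per peak with no stated unit, and it was used only within the list. Starts were taken as counted from 0 and are printed counted from 1. Depth is unknown.

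The 2 genes, their limits and all lists were chosen with earlier results of these data known. The named genes are these 2 and their neighbours in RefSeq order. A list of nuclear body genes was not counted, since the RefSeq gene table was on GRCh38.p14. Counting steps were tested on simulated data. Scripts ran in Python 3.11.15 with pandas 2.3.3, numpy 2.4.6, matplotlib 3.10.9 and scipy 1.17.1. Alternatives were other flanks, a stricter score, overlap, joined peaks and other backgrounds.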

Additional observations from a re-analysis of the deposited data

How the results depend on the processing

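Of 32 alternatives for 10 values, 12 kept a count within 1.5 times or a share within its exact 95% interval. Of the other 20, 18 left these limits and 2 measured a distance to another point of the peak, which moves it by construction. The intervals treat bases and peaks as independent, and are narrow for shares of bases or of the whole list. Leaving one need not mean a large change. For the strongest NEAT1 peak, 96.4% on chromosome 11 left the interval around 96.8% in the list. Within the gene body alone, NEAT1 had 4 peaks and MALAT1 had 1, which took the share of the window to 9.80% and the covered share to 11.8% for NEAT1 and 3.10% for MALAT1, so most peaks of MALAT1 depend on the flank. Only peaks above the list median left 2 at NEAT1 and covered 7.04% of it and 9.42% of MALAT1. Joining close peaks gave 4 regions at NEAT1. The share of peaks scoring below the strongest was 96.4% on chromosome 11, 96.1% in the window and 98.5% among peaks of like width for NEAT1, and 62.3%, 74.5% and 43.1% for MALAT1; the comparison by width was added after the data had been seen. Measured to the nearest edge in place of the midpoint, the strongest peak lay at -3139 bp from the NEAT1 start and at 9470 bp from the MALAT1 start. The count of stretches as full as NEAT1 was 793 for the gene body with 4 peaks, 1807 above the median score with 2 peaks and 308 for joined peaks with 4 regions, so the place of NEAT1 among dense stretches rests on weak and close peaks. No paired analysis was possible because the result comes from no test and 1 library has peaks. Without the read depth, sites too weak to be listed cannot be numbered.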
